A study of Mus musculus with 2 samples.

Results

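The far end of mouse chromosome 1, here the genes that start at or beyond 180 Mb, was examined in liver RNA of Bglu3 congenic mice and of C57BL/6 apoE-/- control mice. The genes were chosen by position alone: each has a probe set that the platform annotation ties to 1 gene symbol, and each was placed by its Entrez identifier on assembly GRCm38.p6. Tlr5 and Atf3 were left out of the set. This gave 103 genes, of 18193 measured with such probe sets, read by 219 probe sets. The annotation calls 93 of them protein coding, 9 long non-coding and 1 a transcribed pseudogene.

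One array was made per group. Per the labels, mice of both groups went onto chow at weaning (3 weeks of age) and switched to a Western diet at 6 weeks, which they ate for 12 weeks before liver RNA was taken. Beside the strain label that names its group, each array carries a further strain label, C57BL/6, and the disease state hyperglycemia. The congenic array is titled Ch1ABC and the control array B6. Bglu3 names a quantitative trait locus of blood glucose on this chromosome. In a congenic strain, a stretch of chromosome from a donor has been bred onto another strain. The sources used here do not give the donor strain, the ends of the segment, the apoE genotype of the congenic mice, their sex or how many mice stand behind an array. There is thus no replicate, no test and no standard error, and each difference below describes 2 arrays. All 8 hepatocyte markers examined were bright on both arrays, the dimmest at 2915 in congenic and 2910 in control liver.

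Genes of a chromosomal segment share a location and not a pathway. In a congenic strain, however, donor alleles of neighbouring genes are inherited together, so each gene inside the segment can differ in its regulatory or coding sequence from the background strain. The distal genes of chromosome 1 include several that liver uses heavily. Hsd11b1 regenerates active glucocorticoid inside hepatocytes, Ephx1 hydrolyses epoxides of drugs and toxins, and G0s2 restrains the release of stored triglyceride. Prox1 is a homeobox factor needed for hepatocyte and lymphatic endothelial identity.

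Of the 103 genes, 83 were expressed, meaning that the brightest probe set reached the median intensity of its array on at least 1 array (19.3 for the congenic array, 19.7 for the control). Differences are log2(intensity + 5) of the congenic minus the control array in the brightest probe set, and they understate the differences of dim genes. G0s2 was higher, and Nsl1, Esrrg and Camk1g were lower, by 2-fold or more. At 1.5-fold or more, 5 of the 83 were higher (6.02%, against 7.47% of all expressed genes) and 8 were lower (9.64%, against 5.23%). The filter keeps a gene that is bright on a single array, so some of these 13 passed it only through the array where they were high. At 2-fold or more, 1 was higher (1.91% of all expressed genes) and 3 were lower (1.44%). The share of higher genes lay near the background. The share of lower genes lay above it by a few genes, and no test of that excess was possible. It was near the background when expression was required on both arrays, with 2 of 69 higher (2.9%, against 5.68%) and 3 lower (4.35%, against 3.29%). The median difference was 0.05 over the 83 genes and 0.04 over all 12608 expressed genes.

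**Figure D1:**
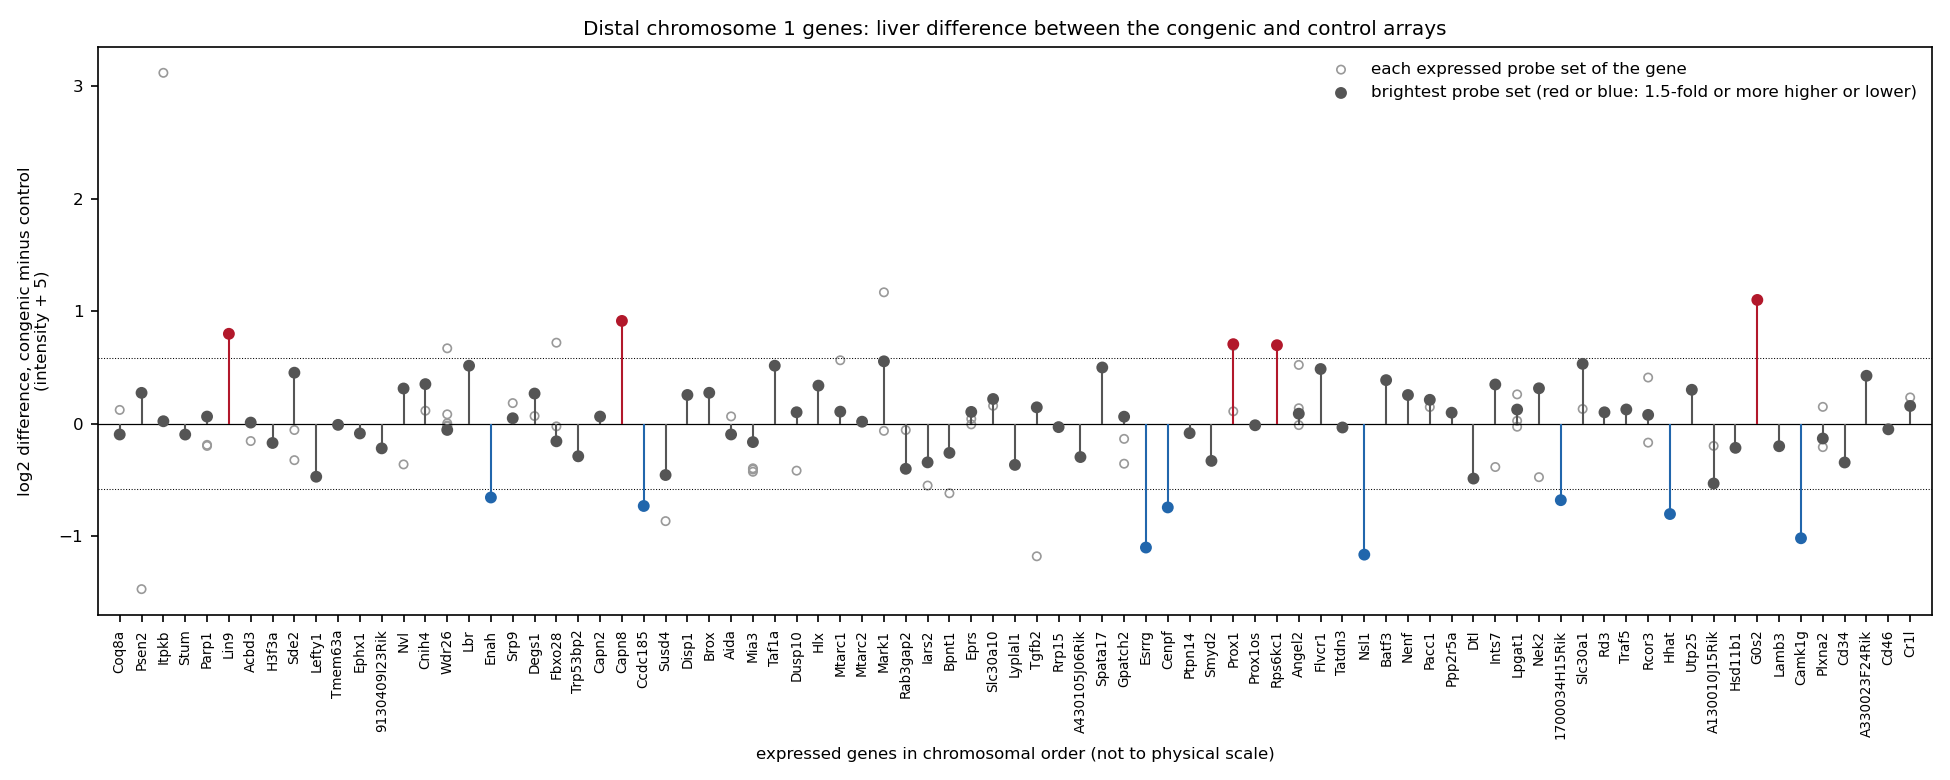
Log2 difference (congenic minus control, intensity + 5) of the 83 expressed genes in chromosomal order, equally spaced. Filled points are brightest probe sets, open circles the other expressed probe sets, and dotted lines mark 1.5-fold; G0s2 at 1.10 is the highest filled point and Nsl1 at -1.17 the lowest, while an open circle of Itpkb stands at 3.12.

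G0s2 and Hsd11b1 are neighbours among the measured genes and both are bright in liver, yet G0s2 was past 2-fold and Hsd11b1 was not. Their reference promoter sequences are shown as those of an adjacent pair of bright metabolic genes. Whether promoter sequence bears on their differences was not tested. They come from RefSeq on GRCm38.p6 and run 5′ to 3′ on the minus strand from 250 bases before to 50 after the annotated start. G0s2 lies at chr1:193273139-193273438 and Hsd11b1 at chr1:193242311-193242610, and capitals mark a CCAAT box on either strand. The sequence is that of the reference strain, and the donor allele was not read.
G0s2: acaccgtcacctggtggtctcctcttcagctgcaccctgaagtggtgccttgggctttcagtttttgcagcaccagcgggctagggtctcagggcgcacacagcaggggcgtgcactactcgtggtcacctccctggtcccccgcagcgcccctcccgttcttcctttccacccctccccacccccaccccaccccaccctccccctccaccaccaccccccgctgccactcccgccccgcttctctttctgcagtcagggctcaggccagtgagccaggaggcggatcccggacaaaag
Hsd11b1: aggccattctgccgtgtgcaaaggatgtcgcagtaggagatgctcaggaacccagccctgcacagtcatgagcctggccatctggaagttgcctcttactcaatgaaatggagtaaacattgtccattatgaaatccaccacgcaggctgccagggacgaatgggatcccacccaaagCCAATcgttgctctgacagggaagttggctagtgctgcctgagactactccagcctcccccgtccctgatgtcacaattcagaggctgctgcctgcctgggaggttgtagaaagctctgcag
The window of Hsd11b1 held 1 CCAAT box and that of G0s2 none. Neither window held a TATA box (letters TATAAA), a nuclear receptor motif (letters AGGTCA) or an E box (letters CACGTG) on either strand, which says only that these letters are not there. G and C made up 66.7% of the G0s2 window and 54.7% of the Hsd11b1 window.

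The metabolic genes were the brightest group, and G0s2 was the one that stood out. G0s2, an inhibitor of the adipose triglyceride lipase Pnpla2, had an intensity of 2586 in congenic and 1204 in control liver. The difference was 1.10 on the log2 scale, or 2.14-fold, in its single probe set. At this level differences of that size were uncommon: of 1389 expressed genes with a mean intensity of 1000 or more, 0.936% were higher and 0.576% lower by 2-fold or more. G0s2 ranked 179th among the 12608 expressed genes by its positive difference. It had the highest difference of the 83 distal genes, so these shares do not measure how unusual the top gene of such a set is.

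Hsd11b1 was the brightest of the distal genes, at 7228 in congenic and 8394 in control liver, a difference of -0.22. Mtarc1 and Mtarc2, mitochondrial reductases of N-hydroxylated compounds, read 4923 against 4574 and 4669 against 4615. Ephx1 read 3041 against 3232 (log2 difference -0.09), and Coq8a, a mitochondrial protein needed for coenzyme Q synthesis, 2831 against 3028 (-0.10). All of these stayed within 1.5-fold, though a second probe set of Mtarc1 came close to it, at 984 against 664 (0.56). Degs1, a desaturase that completes ceramide synthesis, stood at 1381 against 1147 (0.27), and Lpgat1, a lysophospholipid acyltransferase, at 1216 against 1115 (0.12). Lyplal1, a lysophospholipase-like protein, was the lowest of the group with 177 against 230.2 (-0.37). Bpnt1, a phosphatase of the sulfation pathway, read 392 against 470.4 in its brightest probe set (-0.26) and 74.9 against 118 in the other (-0.62). Thus 1 of 10 metabolic genes was past 1.5-fold (12.7% of all expressed genes were) and the other 9 were within it. The group median was -0.04.

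Genes elsewhere in the genome that act with these enzymes were looked at as one group, and none of the 7 was past 1.5-fold in its brightest probe set. H6pd, which supplies reduced cofactor to Hsd11b1, differed by 0.07, and the glucocorticoid receptor Nr3c1 by -0.27. Of the other 3 expressed probe sets of Nr3c1, those at -0.29 and -0.14 were on the same side, and the dimmest, at 39.4 against 21.8, was past 1.5-fold the other way (0.73). Pnpla2, the lipase that G0s2 inhibits, differed by -0.30 in its brightest probe set and by 0.56 in the other, and its activator Abhd5 by -0.18. Cyb5b and Cyb5r3, which pass electrons to the Mtarc enzymes, differed by -0.33 and -0.02, and Ephx2, the soluble epoxide hydrolase, by -0.08.

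**Figure D2:**
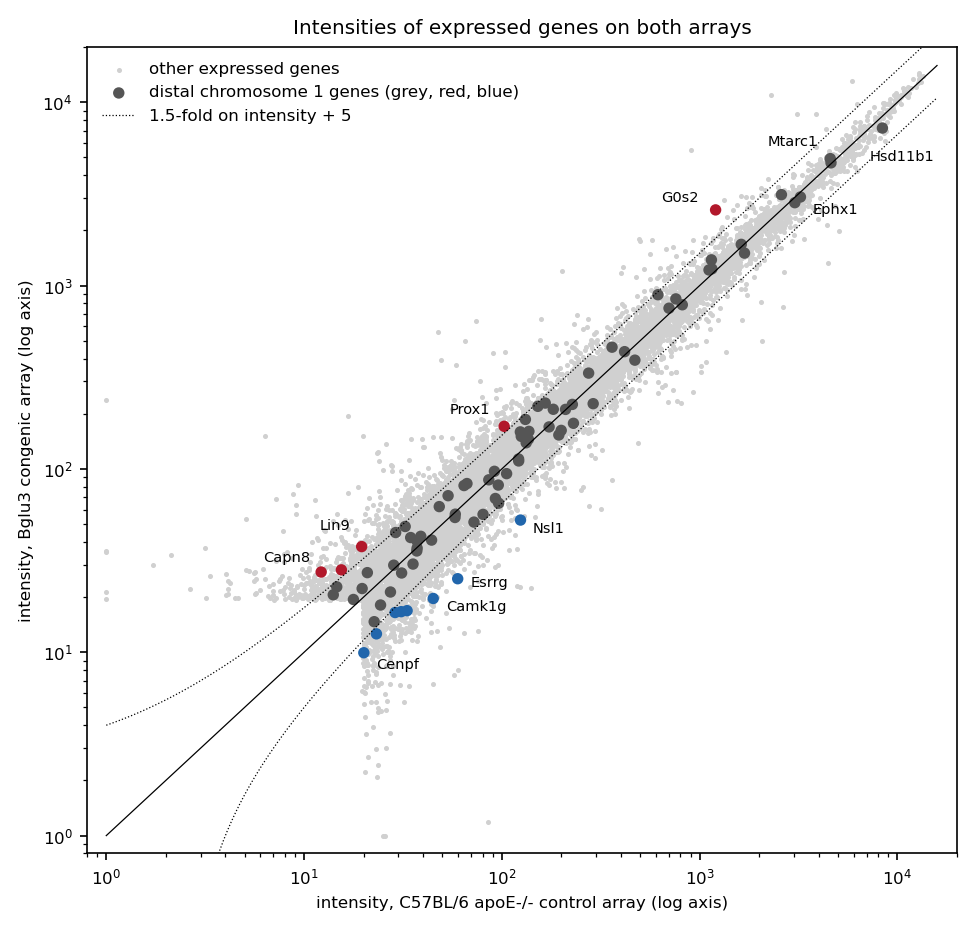
Intensity on the congenic array against intensity on the control array (log axes) for all expressed genes, with the distal chromosome 1 genes in larger points (red or blue: 1.5-fold or more higher or lower). The solid line marks equal intensity and the dotted lines 1.5-fold on intensity + 5; among the distal genes, G0s2 lies farthest above the line among the bright ones, at 2586 against 1204, and the brightest blue point is Nsl1, at 52.6 against 124.

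Among transcription and chromatin genes, Prox1 was higher and Esrrg lower. Prox1 had an intensity of 171 in congenic and 103 in control liver (log2 difference 0.71). Another probe set read 25.9 against 14.1 (0.69) and the last one 34.9 against 32.0 (0.11), so all 3 lay on the same side but by unequal amounts. Its mean over these probe sets was 0.50, below 1.5-fold. Prox1os, the long non-coding RNA annotated beside it, read 225 against 227 (-0.01). Esrrg, the orphan nuclear receptor ERR gamma, read 25.2 against 59.8 (-1.10) in the 1 expressed of its 3 probe sets. The other 2 were dim on both arrays, between 5.81 and 11.9, and lay slightly the other way (0.13 and 0.20).

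Other factors of this group stayed within 1.5-fold. Lbr, a nuclear envelope receptor that anchors chromatin and shapes the granulocyte nucleus, read 219 against 152 (0.51), and Taf1a, a subunit of the RNA polymerase I selectivity factor, 48.5 against 32.5 (0.51). Batf3, needed for a lineage of dendritic cells, stood at 71.4 against 53.5 (0.39), and the homeobox gene Hlx at 62.3 against 48.2 (0.34). Smyd2, a lysine methyltransferase, read 153 against 194 (-0.33). The group median was 0.34 over 9 expressed genes, with 1 higher, 1 lower and 6 of the 9 above zero. Among all expressed genes 7.47% were higher, 5.23% lower and 56.1% above zero.

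Genes of cell division and DNA repair were mixed and mostly dim. Nsl1, a subunit of the Mis12 complex at the kinetochore, had the lowest difference of all 83 genes, with 52.6 in congenic and 124 in control liver (log2 difference -1.17). Its other probe set, not expressed by the rule, read 9.16 against 16.4 (-0.60), on the same side. Cenpf, another kinetochore protein, read 9.94 against 20.1 (-0.75), close to the median of the array. Its other 2 probe sets, not expressed by the rule, lay the other way (0.23 and 0.55). Lin9, part of the complex that controls mitotic genes, was higher at 37.7 against 19.6 (0.80). Dtl, which directs a ubiquitin ligase during replication, read 14.7 against 22.6 (-0.49). Both expressed probe sets of Nek2, a centrosome kinase, were dim and disagreed (0.31 and -0.48). Parp1, a sensor of DNA breaks, read 139 against 133 (0.06). Of the 8 genes of this group, 1 was higher and 2 were lower (7.47% and 5.23% of all expressed genes). Lin9 and Cenpf reached the array median only on the array where they were high. In a separate list of 6 cycling cell markers, of which 5 were measured and 4 expressed, 3 were higher and 0 lower, with a summed intensity of 175 against 90.8 over the expressed ones. Their part in these results was not tested.

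Of 8 kinases and signalling genes, 1 was higher and 1 lower by the brightest probe set (7.47% and 5.23% of all expressed genes). The group also held the largest probe set difference of the region. Camk1g, a calcium/calmodulin-dependent kinase, read 19.7 in congenic and 45.0 in control liver (log2 difference -1.02). Rps6kc1, a protein with an S6 kinase-like domain, read 28.1 against 15.4 (0.70) and reached the array median on the congenic array only. Ppp2r5a, a regulatory subunit of protein phosphatase PP2A and the brightest of the group, read 1233 against 1153 (0.10). Dusp10, a phosphatase of stress-activated kinases, differed by 0.10 and Ptpn14, a tyrosine phosphatase, by -0.09.

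Itpkb, the kinase that phosphorylates inositol trisphosphate, gave readings that cannot be merged into one value. One probe set read 87.2 in congenic and 85.9 in control liver (log2 difference 0.02). The other read 195 against 18.0 (3.12, or 8.69-fold). The first is near equality and the second has the largest difference of all 140 expressed probe sets of these genes. The part of the transcript that each probe set reads was not determined. The brightest probe set was taken by the mean of log values, which picks the first; by the arithmetic mean the second is brighter and Itpkb then counts as higher.

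Probe sets of 3 other genes also spread by 1 or more on the log2 scale. Psen2, a presenilin of the gamma-secretase protease, read 3132 against 2591 in its bright probe set (0.27) and 6.25 against 26.2 in a dim one (-1.47). Mark1, a kinase of microtubule-associated proteins, ranged from -0.06 to 1.17 over 3 expressed probe sets, with 45.0 against 29.0 in the brightest (0.55). Tgfb2, a transforming growth factor beta ligand, read 22.3 against 19.7 in the brighter of its 2 expressed probe sets (0.14) and 9.42 against 27.7 in the dimmer one (-1.18). Its remaining 2 probe sets, not expressed by the rule, were also on the lower side (-1.40 and -0.49). Wdr26, a subunit of the CTLH ubiquitin ligase, spread by less than 1. The 5 brighter of its 6 probe sets lay between -0.06 and 0.08 and the dimmest read 67.8 against 40.8 (0.67).

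**Figure D3:**
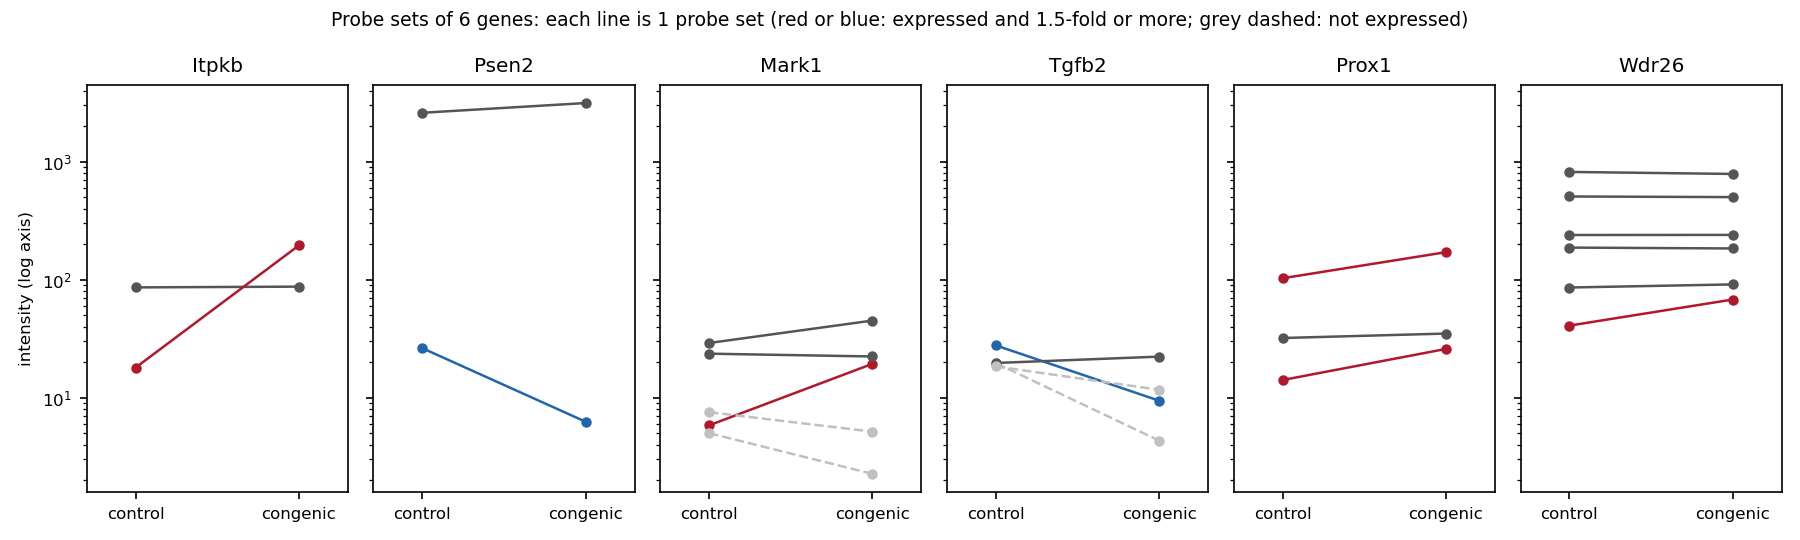
Intensity on the control and congenic arrays (log axis) for each probe set of Itpkb, Psen2, Mark1, Tgfb2, Prox1 and Wdr26, 1 line per probe set. The lines of Itpkb cross, one at 18.0 and 195 and the other level near 87.2, whereas 5 of the 6 lines of Wdr26 are close to level.

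The spread between probe sets of a gene was wider among the distal genes than over the array. The excess in pooled SD rested largely on Itpkb. Of 37 with at least 2 expressed probe sets, 17 (45.9%) had all of them on the same side, against 52.4% of 5189 genes in all. Deviations from the gene's own mean had a pooled SD of 0.45, against 0.34 over all genes, and 4 of the 37 spread by 1 or more (10.8%, against 7.92%). Without Itpkb the pooled SD of the distal genes was 0.35. Of the 36 genes then left, 16 (44.4%) had all probe sets on the same side and 3 spread by 1 or more (8.33%). Counted by probe set, 10 of 140 expressed ones were 1.5-fold or more higher (7.14%, against 7.22% of all expressed probe sets) and 12 were lower (8.57%, against 6.04%).

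Among growth factor, receptor and immune surface genes, only Hhat was past 1.5-fold by its brightest probe set. Hhat, which attaches palmitate to hedgehog proteins, was lower at 16.9 against 33.2 (log2 difference -0.80). It reached the array median on the control array only. Lefty1, a secreted inhibitor of nodal signalling, read 56.5 against 80.3 (-0.47). Susd4, a membrane protein that restrains complement, was lower in both probe sets, at 51.3 against 72.3 (-0.46) and 22.6 against 45.3 (-0.87). Cr1l, the complement regulator Crry of rodents, was the brightest of the group at 846 against 758 (0.16), and Cd46, another complement regulator, read 35.7 against 37.1 (-0.05). Traf5, an adaptor of tumour necrosis factor receptors, stood at 42.9 against 38.9 (0.13), and Cd34, a sialomucin of endothelial and progenitor cells, at 18.1 against 24.4 (-0.35). Tgfb2, described above, is also in this group and counts as within 1.5-fold by its brightest probe set (0.14), though its other probe sets lay lower. Of 11 expressed genes 0 were higher and 1 was lower (7.47% and 5.23% of all expressed genes). Counts this small do not set the group apart from these shares.

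Cr2, the complement receptor of B cells and follicular dendritic cells, was not expressed by the rule, at 14.1 against 12.0, and neither was Traf3ip3, a lymphocyte adaptor, at 1.89 against 2.48. Other immune cell markers did differ between the arrays. Of 6 expressed B and plasma cell markers 4 were higher and 1 lower, with a summed intensity of 1093 against 294, and of 9 neutrophil markers 7 were higher and 0 lower, with 4219 against 1328. T and NK cell markers (4 of 5 higher, 0 lower) summed to 266 against 144, and Kupffer cell and macrophage markers (5 of 8 higher, 0 lower) to 20190 against 13300.0. Dendritic cell markers (0 of 2 higher, 1 lower) summed to 117 against 121, endothelial ones (0 of 7 higher, 1 lower) to 3523 against 3204, and stellate cell ones (2 of 6 higher, 0 lower) to 1184 against 1074. Cholangiocyte markers (0 of 4 higher, 0 lower) summed to 143 against 162. No measured marker stood at 0. In bulk liver, more cells of a type and more RNA per cell cannot be told apart. The part of cell composition in the values of Lbr, Batf3, Cd34 and Hlx was not tested.

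Of 5 expressed transporters, 4 lay on the higher side (56.1% of all expressed genes did) and none reached 1.5-fold (12.7% did). Slc30a1, which exports zinc from the cell, read 891 in congenic and 615 in control liver (log2 difference 0.53) in one probe set and 222 against 203 (0.13) in the other. Flvcr1, a transporter first described for heme export, read 186 against 132 (0.49). Slc30a10, a manganese exporter, had 160.2 against 137 (0.22) and 143 against 128 (0.16), and Pacc1, a proton-activated chloride channel, 211 against 182 (0.21). The fifth, the osmosensitive channel Tmem63a, differed by -0.01.

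Of 12 expressed translation, RNA and secretory genes, none was past 1.5-fold by its brightest probe set (12.7% of all expressed genes were). They ranged from -0.40 to 0.35. So small a count does not set the group apart from that share. Srp9, a subunit of the signal recognition particle, read 1677 against 1623 (0.05), and Mia3, which loads large cargo at endoplasmic reticulum exit sites, 1503 against 1685 (-0.16), with all 4 of its probe sets on the lower side. Iars2, the mitochondrial isoleucyl-tRNA synthetase, was lower in both probe sets (-0.34 and -0.55). Eprs, the glutamyl-prolyl-tRNA synthetase of the cytosol, lay between -0.01 and 0.10 in its 3 expressed probe sets. Cnih4, a cargo receptor of the early secretory pathway, was the highest of the group at 461 against 360.5.

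Of the cytoskeletal, adhesion and proteolysis genes, Capn8, a calpain known from stomach, read 27.4 against 12.2 (log2 difference 0.91). Its other probe set, not expressed, stood at -0.53. Enah, an actin regulator of cell edges, read 16.5 against 28.9 (-0.66). Of its 5 other probe sets, none expressed, 3 lay on the same side and 2 on the other. Capn8 and Enah reached the array median on a single array only. Capn2, the widely expressed calpain, read 436 against 417 (0.06), and the laminin subunit Lamb3 30.3 against 35.5 (-0.20). Of the genes with no role assigned, Ccdc185, a coiled-coil protein, read 16.7 against 31.0 (-0.73) and the long non-coding RNA 1700034H15Rik 12.6 against 23.2 (-0.68). Its other probe set, not expressed by the rule, lay the other way at 16.4 against 5.95 (0.97). Both Ccdc185 and 1700034H15Rik reached the array median on the control array only.

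Most of the differing genes were dim, here and over the whole array. Of the 13 past 1.5-fold, 11 had a mean intensity under 100 and 8 reached the array median on a single array only. The median of their mean intensities was 25.0, against 127 for the 70 within 1.5-fold. Among all expressed genes, 614 of the 942 higher and 471 of the 659 lower were under 100. Requiring expression on both arrays left 658 higher and 381 lower. Of the 44 expressed distal genes under 100, 3 were higher and 8 lower (6.82% and 18.2%), against 11.5% and 8.79% of all 5358 expressed genes as dim. Of the 39 brighter ones, 2 were higher and 0 lower by 1.5-fold, against 4.52% and 2.59% of all 7250 expressed genes as bright. So few genes do not set the brighter ones apart from these shares. The 2 higher and 3 lower genes left by requiring expression on both arrays were G0s2, Prox1, Nsl1, Esrrg and Camk1g. The same 5 of 83 were left with a pseudocount of 20 (2.41% higher and 3.61% lower, against 4.35% and 2.76% of all genes). With the 75th percentile as the filter, 2 of 41 were higher and 1 lower (4.88% and 2.44%, against 5.17% and 2.84%). The 13 genes had 16 further probe sets, 2 of them expressed, and 7 of the 16 lay on the same side as the brightest and 9 on the other. The remaining 20 genes were not expressed, with values between 1.28 and 18.6. They are dim in these samples rather than shown to be absent, and 5 of them crossed 1.5-fold on values that low, 2 higher and 3 lower, against 11.4% and 14.2% of all 5585 genes not expressed.

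Position within the segment was described next. From 180 to 185 Mb, between Coq8a and Mark1, 36 expressed genes had a median of 0.03, with 2 higher and 2 lower by 1.5-fold. From 185 to 190 Mb, between Rab3gap2 and Smyd2, 15 expressed genes had a median of -0.26, with 0 higher and 2 lower, and 10 of the 15 lay below zero. Besides Esrrg and Cenpf, the genes below zero in this stretch include Iars2, Bpnt1 and Lyplal1. The 5 above zero were Spata17 (0.50), Slc30a10 (0.22), Tgfb2 (0.14), Eprs (0.10) and Gpatch2 (0.06). Beyond 190 Mb, from Prox1 to Cr2, 32 expressed genes had a median of 0.10, with 3 higher and 4 lower. Over all 12608 expressed genes the median was 0.04, with 7.47% higher and 5.23% lower, and 5530 lay below zero. The window counts are small, and differences between windows were not tested. Neighbours did not share a direction as a rule: 41 of 82 adjacent expressed pairs lay on the same side, and the longest run was 6 genes from Taf1a to Mark1, all above zero, by 0.02 to 0.55.

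The genes next to the 180 Mb limit are given singly, and so few cannot show whether values step there. The last measured genes before the limit were Ahctf1, a nucleoporin, at 211 against 229.8 (-0.12), and Cdc42bpa, a kinase of the actin cytoskeleton, at 56.4 against 37.5 (0.53). Expressed probe sets of Cdc42bpa ran from -0.13 to 0.53. The first genes beyond the limit were Coq8a (-0.10) and Psen2 (0.27).

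The distal end held a smaller share of higher genes than the segments before it. Its larger share of lower ones was not seen with expression required on both arrays. In the 20 Mb from 160 to 180 Mb, 18 of 132 expressed genes were 1.5-fold or more higher (13.6%) and 8 lower (6.06%), and 8 were higher by 2-fold or more. From 140 to 160 Mb the counts were 8 of 48 higher (16.7%) and 3 lower (6.25%). Below 140 Mb they were 41 of 467 (8.78%) and 26 (5.57%). The distal genes had 6.02% and 9.64%, and their quartiles ran from -0.22 to 0.27, against -0.16 to 0.25 over all expressed genes. With expression required on both arrays, the share of lower genes was 4.35% in the distal genes, 4.27% from 160 to 180 Mb, 4.44% from 140 to 160 Mb and 3.07% below that, and the share of higher genes 2.9%, 8.55%, 15.6% and 6.84%. With 1 array per group these shares are descriptions, and whether they differ between segments was not tested.

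**Figure D4:**
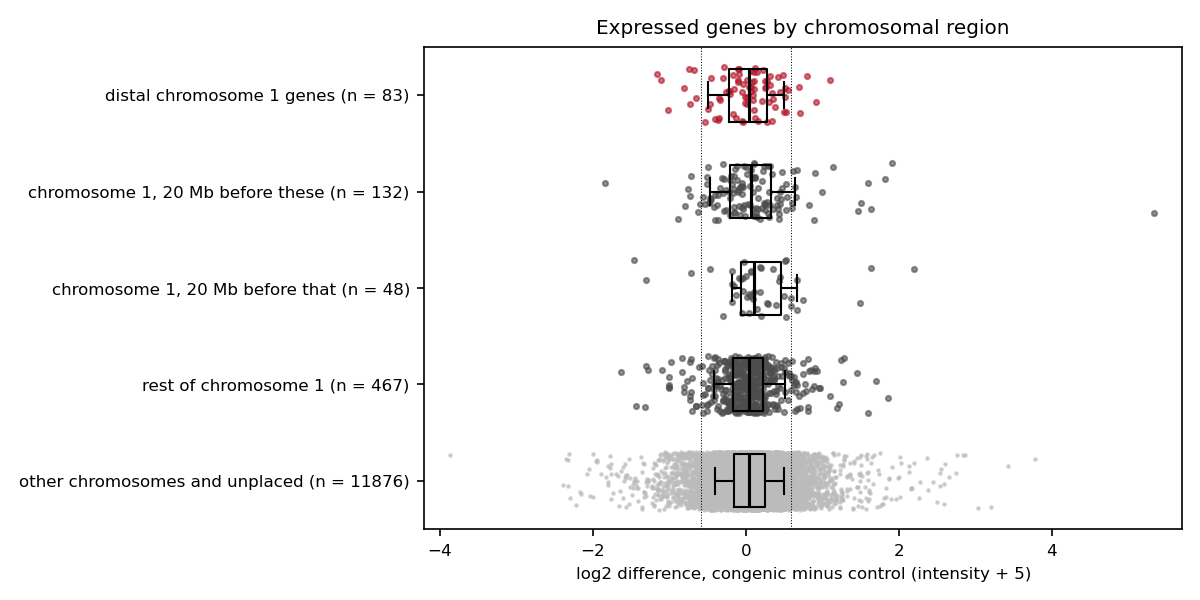
Log2 difference (congenic minus control, intensity + 5) of each expressed gene, by region: the distal chromosome 1 genes, the 20 Mb before them, the 20 Mb before that, the rest of chromosome 1, and other chromosomes. Boxes span the quartiles with the median, whiskers run from the 10th to the 90th percentile and dotted lines mark 1.5-fold; the distal genes lie between -1.17 and 1.10 with a median of 0.05.

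Promoter sequence was a feature that the choice by position did not use. RefSeq held 124 promoter windows for 93 of the 103 genes, on GRCm38.p6. Their median share of G and C was 59.9%, against 52.7% over all 32851 windows. A CCAAT box (letters CCAAT, either strand) was present in 36.3% of the windows, against 37.4% of all. A TATA box (TATAAA) was present in 5.65%, against 13.6%, a nuclear receptor motif (AGGTCA) in 10.5%, against 16.3%, and an E box (CACGTG) in 14.5%, against 7.15%. The full set includes many non-coding and predicted genes, and a match is not a binding site. Windows were counted singly although some overlap, so the same site can count more than once. This holds for an E box shared by the Brox and Aida windows and for one in overlapping windows of A430105J06Rik.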

How the data were processed

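RNA was labelled as biotinylated cRNA from 8 µg of liver total RNA, per the labels' protocols. The deposited table holds linear intensities for 45101 probe sets on 2 arrays; the sources used here do not say how the authors summarized and scaled them. The array medians differed by -0.03 on the log2 scale, below a limit of 0.1, so values were used as deposited.

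Of the probe sets, 64 were controls, 34945 had 1 gene symbol, 932 several and 9160 none; 34737 of the single-symbol ones were placed on GRCm38.p6. A gene's value was that of its brightest probe set, by the mean of log2(intensity + 5). This mean was chosen after the values under it and under the arithmetic mean were seen, in part because its counts match an earlier account of these data; it moves Itpkb from 3.12 to 0.02. Named genes were all past 1.5-fold, the 10 brightest, those with at least 3 expressed probe sets spread by 1 or more, the genes at the 180 Mb limit, and a list chosen by role. The genes and lists were chosen with earlier results of these data known. Other genes named, the groups by role and the windows within the segment were chosen after the values were seen. Probe sets with names ending in _s_at or _x_at can bind several transcripts. The procedure was tested on simulated data. Python 3.11.15, pandas 2.3.3 and statsmodels 0.14.6 were used. The number of arrays limits the precision.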

Additional observations from a re-analysis of the deposited data

How the results depend on the processing

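With 1 array per group no spread between animals is known, and no replicate could be left out. No paired analysis was possible because each group has 1 array. The counts of 5 higher and 8 lower genes became 2 and 3 with a pseudocount of 20 (all genes: 4.35% higher, 2.76% lower), 2 and 3 of 69 when both arrays had to show expression (5.68%, 3.29%), 2 and 1 of 41 when the filter was the 75th percentile (5.17%, 2.84%), and 1 and 3 at 2-fold (1.91%, 1.44%). The excess of lower genes over the background was thus not kept under the 75th percentile, where 2.44% were lower. For genes starting from 185 Mb, 3 were higher and 6 lower (all genes: 7.47% higher, 5.23% lower). Median centring, quantile normalization and removal of a loess trend (span 0.3) left the same 13 genes past 1.5-fold. The median of the distal genes ran from -0.02 (mean over expressed probe sets) to 0.08 (median centring), and was -0.01 over probe sets ending in a plain _at. Of 349 values of 44 named genes under the alternatives, 10 moved by more than the probe set SD of 0.34. None of the 13 changed sign, but they had little room to: 12 have 1 expressed probe set, and a pseudocount cannot change a sign. Other named genes did change sign. Over probe sets ending in a plain _at, Psen2 went from 0.27 to -1.47, Nek2 from 0.31 to -0.48 and Tgfb2 from 0.14 to -0.49. The mean over expressed probe sets gave 1.57 for Itpkb, -0.60 for Psen2 and -0.52 for Tgfb2. The choice of the brightest probe set by arithmetic mean, added after seeing the data, gave 6 higher and 8 lower genes, with Itpkb at 3.12.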
